A study of Mus musculus with 10 samples.

Results

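Amino acid carriers move amino acids, and in some families related small molecules such as taurine, creatine and monoamines, across membranes. The genes described here were all those in the deposited count table whose symbol places them in the solute carrier families SLC1, SLC3, SLC6, SLC7, SLC36, SLC38 or SLC43, without pseudogenes and antisense transcripts. Of 55453 gene symbols, 67 had such a name, 4 of these were antisense transcripts, and 63 genes remained. RNA of the whole aorta was sequenced from 10 male C57BL/6 mice, with 1 library per mouse. The young group held 5 mice at 14.5 weeks of age and the old group 5 mice at 92.5 weeks. All mice were untreated and of a single sex and strain, were killed at the same time after saline perfusion, and had the fat around the aorta stripped off before RNA was taken from the homogenized vessel. Between 19640401 and 22886153 reads per library were counted on genes.

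These families are coupled to one another. Sodium-driven carriers such as those of SLC38 and SLC1 accumulate small neutral or acidic amino acids in the cell, and the exchangers of SLC7 then trade these against leucine and other essential amino acids, as partners of an SLC3 heavy chain. The cationic carriers of SLC7 bring in arginine, the substrate of nitric oxide synthase, and carriers on the lysosome report amino acid supply to the kinase complex mTORC1. In vascular smooth muscle and endothelium, arginine uptake, glutamine uptake and taurine uptake are the best known of these functions.

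The libraries carried the markers of the labelled tissue. The summed level of 8 smooth muscle markers lay between 740029 and 949962 normalized counts in all 10 libraries, where a normalized count is a read count divided by the size factor of its library. Of the 8 smooth muscle markers, Smtn alone passed the test, with a log2 fold change of 0.29 (adjusted p = 0.0217 in edgeR). Some markers of other cells also moved with age. Of 6 fibroblast markers, Lum was called higher and Pi16 lower, with log2 fold changes of 0.58 and -0.58. The 7 endothelial markers all had a negative log2 fold change, of which Tek passed the test, and their sum was 19666 to 33864 normalized counts in young and 9886 to 22629 in old aortae (exact permutation test, p = 0.0317). All 9 macrophage markers had a positive one, of which 4 passed, and their sum was 5946 to 7795 in young and 8007 to 14659 in old aortae (exact permutation test, p = 0.00794, the smallest value that 5 against 5 mice can give). The 6 T cell markers summed to 17.4 to 41.9 and 56.0 to 171 (exact permutation test, p = 0.00794). The 5 platelet and megakaryocyte markers summed to 285 to 439 and 409 to 687 (exact permutation test, p = 0.0238). Of the 4 of them that were tested, 3 had a positive log2 fold change and only Itga2b passed. DESeq2 called 2 of them higher and 1 lower. Of the 5 cardiac muscle markers, Tnnt2 was called higher and Actc1 lower, with log2 fold changes of 1.74 and -2.02. In RNA of a whole vessel, fewer cells of a type and less RNA per cell cannot be told apart, and the part of these shifts in the results below was not tested.

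Of the 63 carrier genes, 58 had a count and 39 had enough counts to be tested. At an adjusted p below 0.05 (edgeR's quasi-likelihood test, Benjamini-Hochberg adjustment over all genes tested), 9 of the 39 differed between old and young aortae, or 23.1%, where 11.5% of the 14614 genes tested did. Of these 9, 5 were upregulated in old aortae (12.8% of the tested carriers, against 6.48% of all genes) and 4 were downregulated (10.3%, against 4.99%). In 6 carriers the 5 old mice and the 5 young mice did not overlap (15.4%, against 9.92% of all genes), and all 6 were among the 9. The directions were balanced, with 19 positive and 20 negative log2 fold changes and a median of -0.00, beside 0.00 over all genes. The median size of the change without its sign was 0.35, beside 0.14 over all genes. Such a size also holds estimation error, which was large for some carriers, and the genes were not matched by level. Summed over all 63 genes, the level was 41802 ± 1356 normalized counts for the young and 43414 ± 928 for the old group (SD, n = 5), with overlap.

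**Figure D1:**
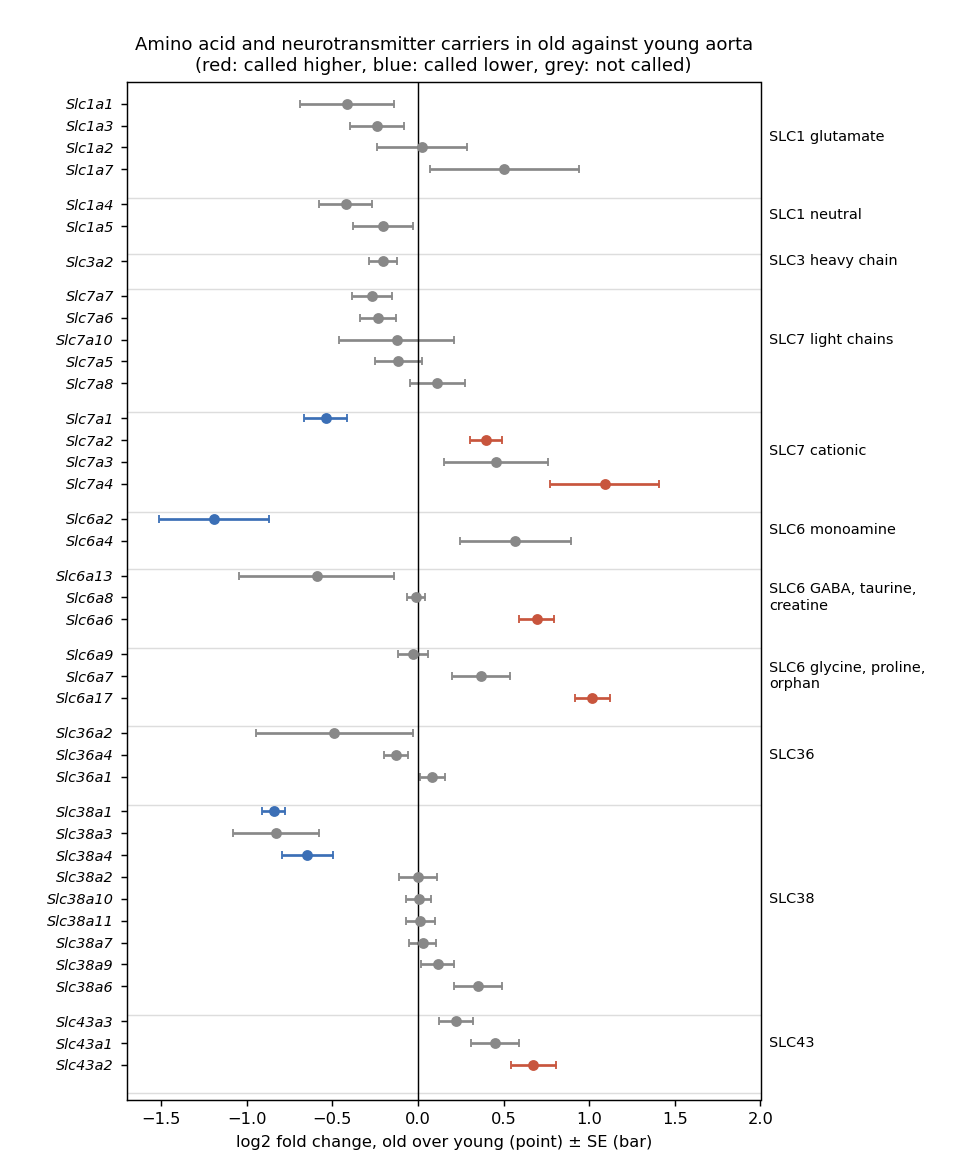
Log2 fold change of old over young aortae for the 39 tested carriers, grouped by role. Bars show the standard error of each estimate, not a 95% interval, and color marks those that passed the test. Slc6a17 and Slc7a4 lie farthest above 0 and Slc6a2 farthest below 0 among the carriers that passed. The estimates of Slc38a2, Slc38a10 and Slc6a8 lie near 0, with standard errors of 0.11, 0.07 and 0.05.

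Expressed per kilobase of exonic sequence, the levels spanned a wide range. In young aortae Slc1a5, Slc38a2 and Slc43a3 were highest, at 1069 ± 320, 993 ± 93.9 and 856 ± 114 normalized counts per kilobase (SD, n = 5), and lay within their spread of one another. The place of Slc1a5 above Slc38a2 rested on young replicate 1, without which the levels were 945 and 1034 per kilobase, a comparison added after the data were seen. Slc38a10 had 613, Slc3a2 475, Slc6a6 469 and Slc6a8 419 normalized counts per kilobase, and the lowest tested carrier was Slc1a2 at 1.95. In old aortae the same 3 genes were at 923 ± 95.8, 987 ± 159 and 993 ± 108 per kilobase, again within their spread, and none of them passed the test between groups. Among the called genes, Slc6a6 went from 469 to 754 per kilobase, above Slc38a10 at 612, and Slc7a2 from 192 to 252, above Slc1a4, Slc7a6 and Slc6a9. The 5 carriers with most reads held 59.7% ± 1.04 of the reads on all 63 genes in young aortae and 62.9% ± 1.58 in old ones (SD, n = 5).

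**Figure D2:**
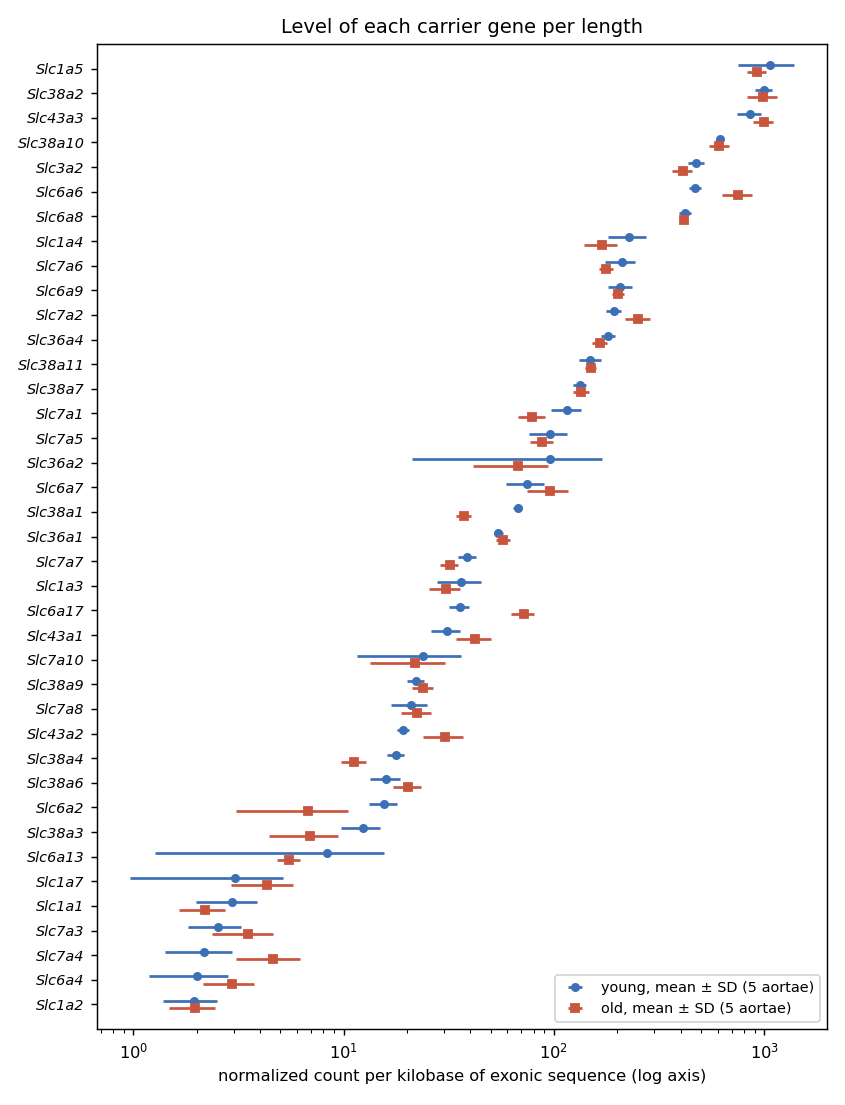
Mean level of each tested carrier in normalized counts per kilobase of exonic sequence, on a log axis, for young and old aortae with SD over 5 mice. Slc1a5, Slc38a2 and Slc43a3 lie at the top and Slc1a2 at the bottom, and Slc6a6 is the carrier among the highest whose old level stands clear of its young level.

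Of the 9 tested SLC38 genes, 2 were called lower, both among 3 neighbouring genes, where 4.99% of all genes were called lower. The family did not fall as a whole, with a median log2 fold change of 0.01. Slc38a1, Slc38a2 and Slc38a4 lie in a row on chromosome 15 (GRCm38, bases 96571418 to 96642913, 96687392 to 96699730 and 96994820 to 97055956, all on the minus strand), with 44.5 kb and 295 kb between them. The windows before the transcription start are shown for Slc38a2 and Slc38a4, of which the second fell with age and the first did not, and for Slc7a1 and Slc6a17, which changed in opposite directions. They are taken from RefSeq promoters of GRCm38.p6, written 5′ to 3′ in the direction of the gene, and capitals mark a match to the AP-1 motif TGANTCA.
Slc38a2 (chr15:96699731-96699978, minus strand): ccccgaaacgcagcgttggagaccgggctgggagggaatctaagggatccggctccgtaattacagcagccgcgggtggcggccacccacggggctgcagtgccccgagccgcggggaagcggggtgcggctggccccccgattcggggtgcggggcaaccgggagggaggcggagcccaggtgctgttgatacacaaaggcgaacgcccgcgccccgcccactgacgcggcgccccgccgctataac
Slc38a4 (chr15:97055957-97056206, minus strand): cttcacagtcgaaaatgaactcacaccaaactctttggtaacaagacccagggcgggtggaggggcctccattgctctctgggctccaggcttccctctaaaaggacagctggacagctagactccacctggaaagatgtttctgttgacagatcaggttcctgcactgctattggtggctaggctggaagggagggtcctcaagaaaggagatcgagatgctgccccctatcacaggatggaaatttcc
Slc7a1 (chr5:148399905-148400154, minus strand): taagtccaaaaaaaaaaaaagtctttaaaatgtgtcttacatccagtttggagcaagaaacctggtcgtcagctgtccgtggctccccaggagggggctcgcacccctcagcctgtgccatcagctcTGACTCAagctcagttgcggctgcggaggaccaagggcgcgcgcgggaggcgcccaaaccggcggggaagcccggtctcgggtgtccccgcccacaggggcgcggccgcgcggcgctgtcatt
Slc6a17 (chr3:107518019-107518268, minus strand): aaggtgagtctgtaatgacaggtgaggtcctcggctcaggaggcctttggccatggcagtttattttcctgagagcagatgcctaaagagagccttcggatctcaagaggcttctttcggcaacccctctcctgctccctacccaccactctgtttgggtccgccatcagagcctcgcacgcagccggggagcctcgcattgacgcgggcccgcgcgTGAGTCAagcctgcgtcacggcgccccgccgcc
The Slc38a2 window had a GC content of 72.2% and that of Slc38a4 52.8%. The AP-1 motif stood 123 bases before the start in Slc7a1, which fell, and 33 bases before it in Slc6a17, which rose. Promoter windows of 300 bases were held for 45 of the 63 genes, 66 windows in all. Some genes had several windows, and some of these overlapped, so that the shares below count windows that are not independent. On either strand, TGANTCA occurred in 9 of these 66 (13.6%) and in 7.81% of all 32851 windows. The motif TGATGNAA of C/EBP and ATF factors occurred in 5 of 66 (7.58%, in Slc1a4, Slc6a21, Slc7a11 and Slc7a7) and in 3.97% of all, the E-box CACGTG in 9 (13.6%) and 7.15%, and the cyclic AMP response element TGACGTCA in 1, that of Slc38a6, and 1.79%. TGACGTCA and TGANTCA do not contain one another. These are matches of letters and no binding was measured.

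Slc38a1 encodes the glutamine carrier SNAT1 and had the smallest p-value of all carriers. In replicates 1 to 5, young aortae had 1219, 1076, 1208, 1152 and 1147 normalized counts of Slc38a1, and old aortae had 627, 635, 604, 731 and 619. Every old mouse lay far below every young mouse. The mean fell from 1160 ± 57.3 to 643 ± 50.3 (SD, n = 5), a log2 fold change of -0.84 with a standard error of 0.06 (edgeR, Benjamini-Hochberg adjusted p = 7.03e-06). Its neighbour Slc38a4, the system A carrier SNAT4 and an imprinted gene known from liver and placenta, was rarer, with 17.7 normalized counts per kilobase in young aortae against 67.3 for Slc38a1, but moved the same way. Young aortae had 85.9, 69.4, 68.8, 78.2 and 74.8 normalized counts of Slc38a4, and old aortae 46.0, 45.8, 39.1, 55.0 and 53.5. Again no old mouse reached the lowest young one, and the log2 fold change was -0.65 ± 0.15 (SE, adjusted p = 0.0136 in edgeR).

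Slc38a2, the gene between them, did not follow. It encodes the system A carrier SNAT2, which cells raise when starved of amino acids or under osmotic stress, and had the most reads of all 63 genes. Its level was 8778 ± 830 in young aortae and 8723 ± 1409 in old ones (SD, n = 5), with a log2 fold change of -0.00 and a 95% interval from -0.24 to 0.24. The share of Slc38a1 in the summed Slc38a1 and Slc38a2 level per kilobase was therefore 5.61% to 7.84% in young and 3.24% to 4.67% in old mice, without overlap. Of the other SLC38 genes, Slc38a3, the system N glutamine carrier, came nearest to the threshold. Young aortae had 72.6, 66.4, 50.8, 83.0 and 52.3 normalized counts of Slc38a3, old aortae 51.0, 46.9, 38.2, 26.0 and 20.4, and the groups overlapped by a single pair of values. Its log2 fold change was -0.83 ± 0.25 (SE, adjusted p = 0.0505 in edgeR), and it passed in 6 of 18 alternative analyses. Wherever 18 alternatives are counted, the fit with the replicate number as a block is left out. Its calls are given in the last section. Slc38a6, of whose sequence windows 35.5% also occur in other transcripts on either strand, had a log2 fold change of 0.35 ± 0.14. Slc38a7 and Slc38a9, both lysosomal carriers of which the second senses arginine for mTORC1, had log2 fold changes of 0.03 ± 0.08 and 0.12 ± 0.10. The less studied Slc38a10 and Slc38a11 had 0.01 ± 0.07 and 0.01 ± 0.09 (SE).

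The cationic carriers of SLC7 split in direction. Slc7a1 (chromosome 5, 148327410 to 148399904) encodes CAT1, the constitutive carrier of arginine and lysine, and Slc7a2 (chromosome 8, 40862396 to 40922308) encodes CAT2, which is induced by cytokines in many cells. Young aortae had 995, 1429, 1227, 1505 and 1502 normalized counts of Slc7a1, and old aortae 1055, 915, 794, 1025 and 767. Only young replicate 1 lay within the range of the old mice. The log2 fold change of Slc7a1 was -0.54 ± 0.13 (SE, adjusted p = 0.0163 in edgeR). Slc7a2 went from 1658, 1682, 1827, 1635 and 1986 normalized counts in young to 2572, 2062, 1863, 2550 and 2465 in old aortae. Here old replicate 3 lay below the highest young mouse and the other old mice above it. The log2 fold change of Slc7a2 was 0.40 ± 0.09 (SE, adjusted p = 0.0147 in edgeR). In every library Slc7a2 had the higher level per kilobase, and the share of Slc7a1 in the sum of both was 37.4% ± 4.02 in young aortae and 23.9% ± 2.44 in old ones (SD, n = 5). The shares ran from 32.2% to 42.2% in young and from 19.8% to 26.0% in old mice, without overlap.

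**Figure D3:**
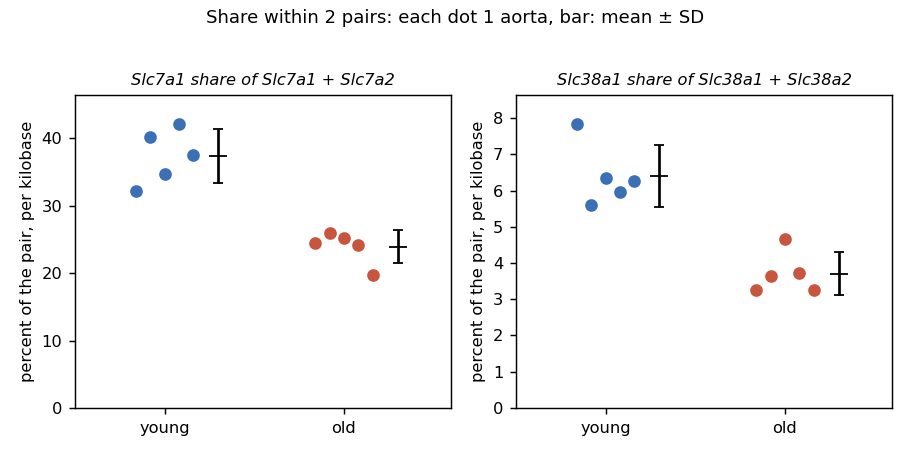
Share of Slc7a1 in the summed level per kilobase of Slc7a1 and Slc7a2, and of Slc38a1 in that of Slc38a1 and Slc38a2, in percent for each mouse with the group mean and SD. In both panels every old mouse lies below every young mouse, at 19.8% to 26.0% against 32.2% to 42.2% and at 3.24% to 4.67% against 5.61% to 7.84%.

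Slc7a4 (chromosome 16, 17572018 to 17583214), a relative of these carriers for which transport has not been established, was found at very low levels. Young aortae had 8.18, 6.04, 14.0, 6.76 and 10.2 normalized counts and old aortae 15.0, 12.0, 17.7, 28.0 and 23.3, with overlap. The log2 fold change was 1.09 ± 0.32 (SE, adjusted p = 0.0420 in edgeR), and the call was lost in 8 of 18 alternative analyses. Of the exonic sequence of Slc7a4, 13.3% is overlapped on the other strand by P2rx6, an ATP-gated channel gene, which rose from 74.5 ± 22.7 to 121 ± 12.2 normalized counts (SD, n = 5), a log2 fold change of 0.71 (adjusted p = 0.0281 in edgeR). Whether reads of P2rx6 were counted for Slc7a4 was not tested, since the strand setting of the counting is not given in the sources used here. Slc7a3, which encodes the arginine carrier CAT3, had 9.59 and 13.2 normalized counts on average and a log2 fold change of 0.46 ± 0.30 (SE) that did not pass.

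The heavy chain and its light chains did not pass the test. Slc3a2 encodes the heavy chain 4F2hc, which brings the light chains to the cell surface. It had 1531, 1698, 1587, 1899 and 1664 normalized counts in the 5 young aortae and 1498, 1673, 1225, 1400 and 1435 in the old ones. The groups overlapped, with a log2 fold change of -0.21 ± 0.08 (SE, adjusted p = 0.128 in edgeR). None of the 5 tested light chains was called by edgeR, DESeq2 or limma-voom, and 2 of them had an unadjusted p below 0.05 in edgeR. The exchangers of neutral amino acids Slc7a5 and Slc7a8, which encode LAT1 and LAT2, had log2 fold changes of -0.11 ± 0.14 and 0.11 ± 0.16. Slc7a6 and Slc7a7, which exchange cationic for neutral amino acids, had -0.23 ± 0.11 and -0.27 ± 0.12, and Slc7a10, the exchanger of small neutral amino acids Asc-1, had -0.12 ± 0.33 (SE). Slc7a6 was called once young replicate 1 was left out (adjusted p = 0.0100 in edgeR), and Slc3a2 without old replicate 2 (0.0423). Over the 10 mice, with group means removed, the level of Slc3a2 was compared with each of the 5 light chains. The relation to Slc7a6 had a Pearson r of 0.530 (permutation p = 0.1003, adjusted 0.502 over 5 pairs) and a Spearman rho of 0.648 (permutation p = 0.0539, adjusted 0.269). The r of the other pairs lay between -0.247 and 0.205, and no pair passed. Without the 2 mice farthest from the median of Slc3a2, r was 0.801 for Slc7a6, 0.677 for Slc7a5, 0.345 for Slc7a8, -0.393 for Slc7a10 and -0.527 for Slc7a7, and the last 3 of these had changed sign.

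The transporters of SLC6 were the most diverse group, and 3 of 8 tested passed, where 11.5% of all genes did. Among these, Slc6a6 and Slc6a17 rose and Slc6a2 fell. Slc6a6 (chromosome 6, 91684053 to 91759066) encodes the taurine carrier TauT, through which cells take up this osmolyte. In replicates 1 to 5, young aortae had 4336, 3812, 4135, 3663 and 3883 normalized counts of Slc6a6 and old aortae 5899, 4903, 7653, 6465 and 6947. All old mice stood above all young mice, although they also scattered more widely among themselves. The mean rose from 3966 ± 268 to 6373 ± 1044 (SD, n = 5), a log2 fold change of 0.69 with a standard error of 0.10 (adjusted p = 0.000968 in edgeR). Slc6a6 held 9.50% ± 0.834 of the reads on all 63 genes in young aortae and 14.7% ± 2.40 in old ones (SD, n = 5). Slc6a8, the creatine carrier of the same branch, was steady at 2184 ± 144 and 2156 ± 37.0 normalized counts, with a 95% interval of its log2 fold change from -0.13 to 0.11. The third tested gene of the branch, the GABA and taurine carrier gene Slc6a13, had a log2 fold change of -0.59 ± 0.45 (SE).

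Slc6a17 (chromosome 3, 107467543 to 107518018) rose by the largest factor among the carriers above 100 normalized counts. It encodes NTT4, a carrier that loads neutral amino acids into synaptic vesicles of neurons. Young aortae had 295, 368, 391, 397 and 379 normalized counts of Slc6a17 and old aortae 771, 836, 738, 587 and 753. The lowest old mouse lay well above the highest young mouse. The log2 fold change was 1.02 ± 0.10 (SE, adjusted p = 7.66e-05 in edgeR). The summed level of 6 neuron markers was 8.69 to 42.9 normalized counts in young and 14.0 to 41.0 in old aortae (exact permutation test, p = 0.524). The sum of 6 Schwann cell markers was 997 to 1825 and 1435 to 1689 (exact permutation test, p = 0.111). The overlap came from young replicate 1 at 1825, as the other young mice had at most 1252. Of the 6 markers, 5 had a positive log2 fold change, and Prx alone was called, as higher in old aortae. The part of nerve-associated cells in the rise of Slc6a17 was not tested. In the same branch, Slc6a9, the glycine carrier GlyT1, had a log2 fold change of -0.03 ± 0.09, and Slc6a7, the proline carrier, one of 0.37 ± 0.17 (SE), neither of which passed. Of the sequence windows of Slc6a9, 26.3% also occur in other transcripts on either strand. Genes on the opposite strand overlap 30.25% of its exonic sequence.

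Of the monoamine carriers, Slc6a2 (chromosome 8, 92960079 to 93001667) encodes the noradrenaline carrier of sympathetic nerves. Young aortae had 90.0, 78.5, 103, 101 and 119 normalized counts and old aortae 68.0, 15.3, 43.8, 62.7 and 23.3. The old mice all lay below the young mice but differed widely from each other. The log2 fold change was -1.19 ± 0.32 (SE, adjusted p = 0.0324 in edgeR), and over 18 alternatives the adjusted p ran from 0.00262 to 0.0718. The call was lost when young replicate 3, 4 or 5 or old replicate 3 or 5 was left out, and without the low-count filter. Markers of the nerves themselves were scarce. Th, the first enzyme of noradrenaline synthesis, had 12.3 normalized counts in young replicate 1, 2.18 in old replicate 2 and none in the other libraries. Dbh, the last enzyme of that synthesis, had 8.18 in young replicate 1 and at most 1.09 elsewhere, and Prph, a peripheral nerve filament gene, had 3.86 to 20.0 over all 10 libraries. Slc6a4, the serotonin carrier, had 9.08 ± 3.72 and 13.3 ± 3.60 normalized counts (SD, n = 5) and did not pass.

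The SLC43 family of facilitative carriers had 3 positive log2 fold changes. Slc43a2 (chromosome 11, 75531694 to 75577575) encodes LAT4, a carrier of branched-chain amino acids, phenylalanine and methionine. Young aortae had 213, 193, 184, 190 and 182 normalized counts of Slc43a2 and old aortae 246, 262, 416, 316 and 288. No old mouse lay within the narrow young range, and old replicate 3 was the highest. The sum of the 9 macrophage markers in the same order was 7795, 6898, 5946, 6869 and 6417 in young and 8224, 9438, 14659, 9338 and 8007 in old mice, with old replicate 3 and young replicate 1 the highest of their groups in both, and its part in this result was not tested. The log2 fold change was 0.67 ± 0.13 (SE, adjusted p = 0.00549 in edgeR). Slc43a1, which encodes the related LAT3, had 167, 178, 155, 162 and 224 normalized counts in the 5 young mice and 194, 304, 213, 221 and 270 in the old mice. Its groups overlapped, and the log2 fold change of 0.45 ± 0.14 (SE) missed the threshold (adjusted p = 0.0556 in edgeR) but passed in 6 of 18 alternatives. Slc43a3, a carrier of purine nucleobases rather than amino acids, was among the most abundant of the 63 genes and had a log2 fold change of 0.22 ± 0.10 (SE).

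**Figure D4:**
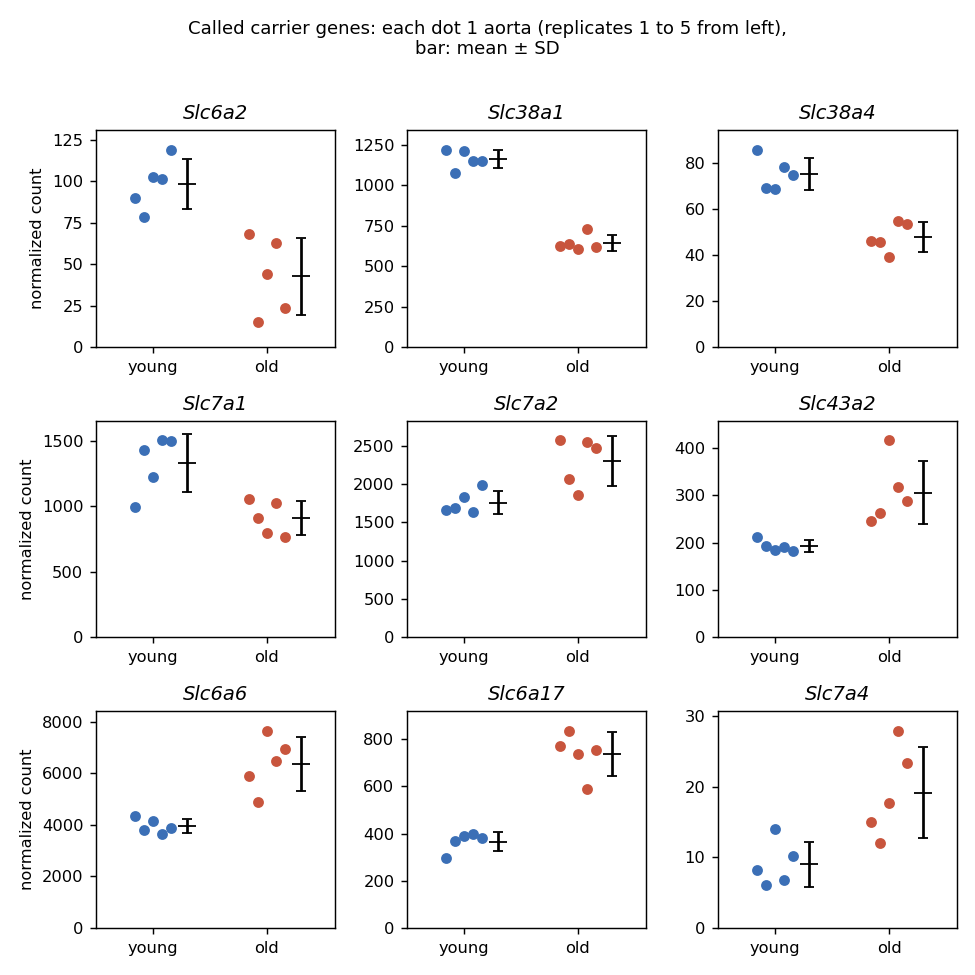
Normalized counts of the 9 carriers that passed the test, 1 point per mouse with the group mean and SD, each panel with an axis from 0. In Slc38a1, Slc38a4, Slc6a2, Slc6a6, Slc6a17 and Slc43a2 the groups do not overlap, and in Slc7a1, Slc7a2 and Slc7a4 they do.

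None of the SLC1 and SLC36 genes was called by edgeR. At an unadjusted p below 0.05 there was 1 in edgeR, Slc1a4, which encodes the serine and alanine exchanger ASCT1. Its level was 894 ± 183 normalized counts for the young and 665 ± 117 for the old group (SD, n = 5), with a log2 fold change of -0.42 ± 0.15 (SE, adjusted p = 0.106 in edgeR). DESeq2 called Slc1a4 lower and limma-voom none of these genes. Slc1a5, which encodes the glutamine exchanger ASCT2, had a log2 fold change of -0.20 with a 95% interval from -0.59 to 0.18. The glutamate carriers Slc1a1, Slc1a2, Slc1a3 and Slc1a7 had log2 fold changes of -0.42 ± 0.28, 0.02 ± 0.26, -0.24 ± 0.16 and 0.51 ± 0.43 (SE). The lysosomal proton-coupled carrier Slc36a1 had 0.08 ± 0.07 and its relative Slc36a4 -0.13 ± 0.07. Of the sequence windows of Slc1a1, 31.0% also occur in other transcripts on either strand, and 12.9% of those of Slc7a10. On the opposite strand, 4430402I18Rik overlaps 31.9% of the exonic sequence of Slc1a1, and Lrp3 17.9% of that of Slc7a10. The strand setting of the counting is not given, so that the counts of both carriers are uncertain.

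In a few carriers the spread followed a single mouse. Slc36a2, a proton-coupled carrier of small amino acids on the surface of fat cells, had 735, 177, 173, 286 and 181 normalized counts in the young mice and 141, 364, 223, 190 and 184 in the old mice. The summed level of 6 white adipocyte markers in the same order was 24468, 7604, 7260, 12489 and 6148 in young and 2964, 8544, 5198, 4241 and 3871 in old aortae (exact permutation test, p = 0.0397). Young replicate 1 and old replicate 2 were the highest of their groups in both. They were also the highest in the sum of 4 brown adipocyte markers, at 1736 against 369 to 735 in the other young mice and 947 against 286 to 856 in the other old mice. That sum did not differ between the groups (exact permutation test, p = 0.762). Slc7a10 had 94.1 normalized counts in young replicate 1, against 26.2 to 50.2 in the other young mice, and 77.4 in old replicate 2, against 32.0 to 41.9. Slc6a13 had 59.3 in young replicate 1, against 8.20 to 26.1, and Slc1a5 had 6532, against 3290 to 4889. With young replicate 1 left out, the log2 fold change of Slc36a2 was 0.11 in place of -0.49 and that of Slc6a13 0.04 in place of -0.59. All 6 white adipocyte markers had a negative log2 fold change, and edgeR and limma-voom called none and DESeq2 2 of them, with 4 at an unadjusted p below 0.05 in edgeR. The part of fat left on the vessel in these values was not tested.

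**Figure D5:**
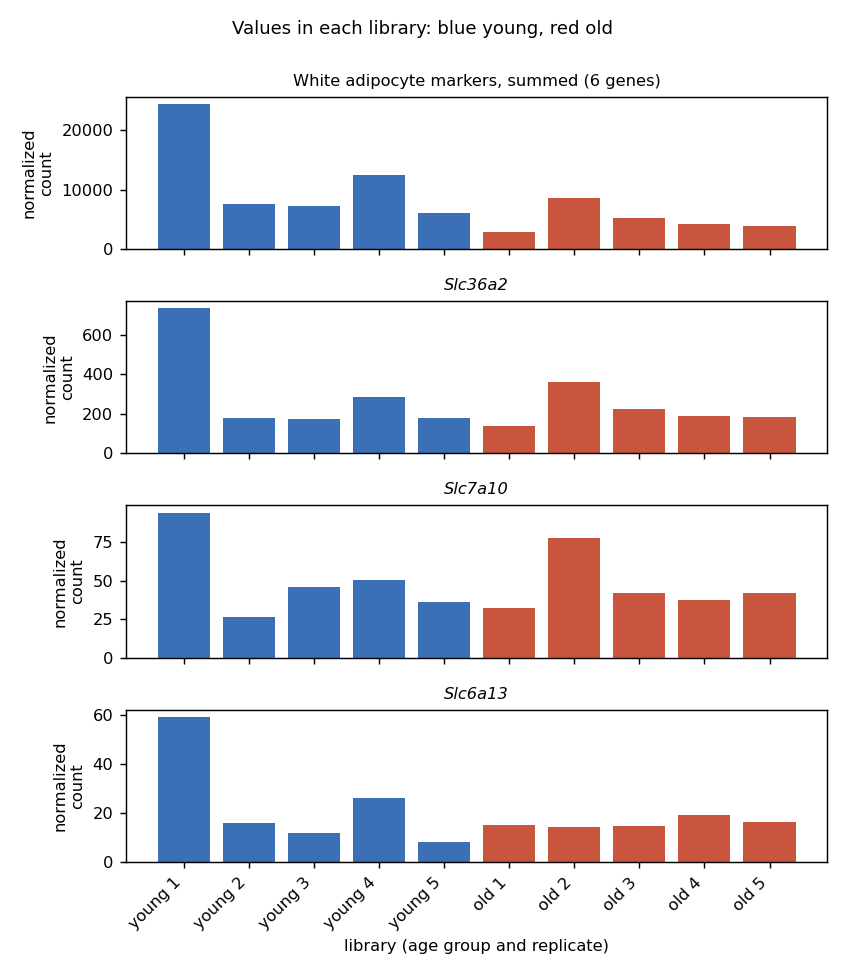
Summed level of 6 white adipocyte markers and levels of Slc36a2, Slc7a10 and Slc6a13 in each of the 10 libraries, in normalized counts. Young replicate 1 has the highest value in every panel, and old replicate 2 is the highest old library for the markers, Slc36a2 and Slc7a10.

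The remaining 24 carriers were too rare to test, and no library held more than 14 reads of any of them. No read was counted in any library for Slc6a3, Slc6a5, Slc6a14, Slc6a18 and Slc7a12, which allows up to 1.31e-05% to 1.53e-05% of the reads of a library (3 counts of its total, counting error only). The other 19 included Slc1a6, Slc36a3, Slc38a5, Slc38a8, Slc3a1, Slc6a11, Slc6a12, Slc6a15, Slc6a16, Slc6a19, Slc6a20a, Slc6a20b, Slc6a21, Slc7a9, Slc7a11, Slc7a13, Slc7a14 and Slc7a15. Slc7a11, the cystine carrier of glutathione supply, had 19 reads over all 10 libraries, and Slc3a1, the second heavy chain gene, had 64.

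Genes that use or sense the carried amino acids were counted in lists. Of 20 tested genes for carriers of amino acids and other small molecules outside these families, 2 passed (10%), where 11.5% of all genes did. The list was not limited to amino acid carriers. Slc16a10, the aromatic amino acid carrier TAT1, fell from 380 ± 47.3 to 180 ± 15.3 normalized counts (SD, n = 5, adjusted p = 5.09e-05 in edgeR), and Slc17a7, a vesicular glutamate carrier, rose from 9.27 ± 3.68 to 32.6 ± 12.5 (adjusted p = 0.00415 in edgeR). Of 21 genes of arginine, nitric oxide, polyamine and creatine metabolism, 3 passed (14.3%), a share near that of all genes, and these 3 fell. These were Azin1, which promotes polyamine synthesis, with a log2 fold change of -0.50, Ddah1, which breaks down methylated arginines that block nitric oxide synthase, with -1.07, and Amd1, an enzyme of polyamine synthesis, with -0.29. DESeq2 called 5 of the 21 genes lower and limma-voom 3, and 8 had an unadjusted p below 0.05 in edgeR. Of 12 enzymes of glutamine, glutamate and GABA, only Abat passed (8.33%, below the share of all genes), which breaks down GABA and had -0.37. Of 15 genes of branched-chain amino acid breakdown, only Bcat1, the cytosolic aminotransferase, passed (6.67%, also below that share). Its log2 fold change was -1.08. None of 10 genes of taurine, glycine and cysteine metabolism was called by edgeR, DESeq2 or limma-voom, and none had an unadjusted p below 0.05 in edgeR.

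Of 29 genes of the ATF4 programme, through which cells answer a lack of amino acids, 7 passed (24.1%, against 11.5% of all genes), 5 lower and 2 higher, where 4.99% and 6.48% of all genes did. The median log2 fold change of the list was -0.14, beside 0.00 over all genes. Atf4 itself fell from 4359 ± 642 to 3136 ± 373 normalized counts (SD, n = 5), without overlap (adjusted p = 0.0129 in edgeR). Vegfa had a log2 fold change of -0.45, and Nupr1, a stress-induced chromatin protein gene, one of 0.49. Of 40 genes of amino acid sensing by mTORC1, 2 passed (5%), below the 11.5% of all genes. These were Castor2, a relative of an arginine sensor, at 0.32 and Fnip2, a partner of folliculin, at -0.45. Qars, at 0.16, was the only call among 20 cytosolic aminoacyl-tRNA synthetases (5%, again below that share). Ggt7 and Gss, at 0.40 and 0.37, were called among 16 genes of glutathione synthesis and turnover (12.5%, near that share).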

How the data were processed

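Each library was made from the aorta of a separate male C57BL/6 mouse with a stranded mRNA kit. The authors deposited raw read counts per gene symbol, without normalization. According to the submitters' processing notes, fastp 0.20.0, STAR 2.7.0f and featureCounts of Subread 1.6.4 were used on GRCm38. The paper's methods name the GENCODE M22 annotation. The strand setting and the treatment of reads with several alignments are not given in the sources used here.

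Exonic lengths and positions were taken from GENCODE M21. Of 28011 genes with a count, 14614 passed the filterByExpr function of edgeR 4.0.16 and entered its quasi-likelihood F test (TMM scaling, robust fit, R 4.3.3). Calls were made at 0.05 after Benjamini-Hochberg adjustment over all of them. For levels, each count was divided by its library's DESeq2 (1.42.0) size factor. Marker sums were compared with two-sided exact permutation tests, and correlations with 100000 permutations within groups. Alternatives were DESeq2, limma-voom (limma 3.58.1), other scalings, other low-count filters, the replicate number as a block and the omission of each mouse. The tests were tested on simulated data.

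The carriers and gene lists were chosen with earlier results of these data known. Every tested carrier is named, with the value in each mouse for those called or without overlap, and up to 3 called genes of each related list by smallest p. Some genes are not reported here. Values per mouse of Slc3a2, Slc36a2, Slc38a3 and Slc43a1, and single genes named beside them (P2rx6, Th, Dbh, Prph), were chosen after their values were seen.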

Additional observations from a re-analysis of the deposited data

Results flagged for a closer look

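In 8 of 78 groups of 5 mice (39 carriers in young and in old aortae), the highest or lowest mouse stood apart from the other 4 by more than Dixon's 95% limit, which chance exceeds in about 1 of 20 groups. Young replicate 1 stood apart in 3 carriers. It had 735 normalized counts of Slc36a2, against 173 to 286 in the other young mice, and was low for Slc38a2, with 7341 against 8792 to 9328, and for Slc6a17, with 295 against 368 to 397. Old replicate 2 was high for Slc38a6, with 199 normalized counts against 136 to 152 in the other old mice, for Slc7a10, with 77.4 against 32.0 to 41.9, for Slc7a3, with 20.7 against 10.3 to 13.0, and for Slc7a7, with 124 against 99.7 to 103. In that library 11.0% of all counts fell on the mitochondrial genome, against 4.50% to 6.51% in the other 9. Old replicate 4 had 731 normalized counts of Slc38a1, against 604 to 635.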

How the results depend on the processing

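Slc38a1, Slc38a4, Slc7a1, Slc7a2, Slc6a6, Slc6a17 and Slc43a2 were called in all 19 other analyses, Slc6a2 and Slc7a4 were not called in some, and no called carrier changed sign. Leaving out each mouse in turn gave 4 to 6 carriers called higher and 3 to 6 called lower. With young replicate 1 and old replicate 2 left out together, a choice made after seeing the data, 6 were called higher and 7 lower. DESeq2 called 6 higher and 6 lower, adding Slc1a4, Slc38a3 and Slc43a1. In all, 6 carriers that were not called passed in some other analysis. With the replicate number as a block, 5 were called higher and 4 lower, with Slc43a1 in place of Slc7a4 (adjusted p = 0.0402 and 0.0709 in edgeR). The deviations of same-numbered mice correlated between -0.30 and 0.13 and only old replicates 3 and 5 correlated best with their own number, so that the numbers do not pair the mice. No scaling moved the median log2 fold change of all genes by more than 0.03. Counts limit Slc7a4, Slc6a4, Slc7a3 and Slc1a7 most, each with fewer than 20 normalized counts on average in either group, and 24 carriers could not be tested at this depth. Of the 30 carriers not called, 10 had a standard error below 0.1 on the log2 scale.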
